A study of Mus musculus with 6 samples.

Results

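The rows described here are the small nucleolar RNAs (snoRNAs), the small Cajal body RNAs (scaRNAs) and the named host genes of snoRNAs in mouse T cell acute lymphoblastic leukaemia cells driven by Notch1. They were chosen by gene symbol alone: Snord, Snora, Scarna or Snhg followed by a number, or Gas5. Of the 13185 rows of the expression table, 65 met that rule, made up of 23 box C/D snoRNAs (Snord), 27 box H/ACA snoRNAs (Snora), 4 scaRNAs and 11 host genes (Gas5 and 10 Snhg genes). One group received panobinostat, an inhibitor of histone deacetylases, at 25 nM for 2 h (3 libraries), and the controls were left untreated for the same 2 h (3 libraries). Both groups were grown on plates coated with an anti-CD3 antibody (clone 145-2C11, 2.5 µg/mL) and received IL-2 at 100 U/mL, so every library comes from cells under T cell receptor stimulation. The labels do not say whether libraries came from separate cultures, mice or leukaemias, and the p-values below therefore measure only the spread between these libraries. Libraries were made from 100 ng of total RNA with the QuantSeq kit, which primes on stretches of A and reads one tag near the priming site. Estimated depth was 6010000 to 7590000 reads in the panobinostat libraries and 6600000 to 7740000 in the untreated libraries. Levels are given as log2 CPM, that is log2 of reads scaled to a library of 1000000, not divided by length, and a difference of 1 is a doubling.

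A snoRNA is a short nuclear RNA that, together with a fixed set of proteins, guides the modification or the cleavage of ribosomal RNA. Box C/D snoRNAs direct methylation of the ribose and box H/ACA snoRNAs direct the change of uridine to pseudouridine, while scaRNAs do the same for spliceosomal RNAs in Cajal bodies. In mammals most are cut out of the introns of a host gene, which may encode a protein, often a ribosomal one, or may have no known product apart from the snoRNA. Many host genes without a coding function, Gas5 among them, are transcripts with a 5′ terminal oligopyrimidine tract that are degraded by nonsense-mediated decay. Mature snoRNAs carry no long poly(A) tail, so a tag in a small RNA row can stem from a transiently adenylated form, from a stretch of A, or from an unspliced or overlapping host transcript, and the table does not tell these apart.

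Of the 9 small RNAs whose rows passed the test, 8 are shown first, because the results turn on them. The sequences are those of the GENCODE M21 annotation, build GRCm38 (mm10), on the strand of the RNA. Capitals mark the box C core TGATGA in the first 20 bases and the box D CTGA in the last 20 bases of Snord genes and of Scarna9, and ACA in the last 10 bases of Snora genes.
Snord89, chr1:39548745-39548854, minus strand: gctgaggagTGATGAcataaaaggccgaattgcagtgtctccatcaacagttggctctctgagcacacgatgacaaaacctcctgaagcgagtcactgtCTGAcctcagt
Snord104, chr11:106500993-106501062, plus strand: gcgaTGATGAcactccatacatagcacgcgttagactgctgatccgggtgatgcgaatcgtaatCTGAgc
Snord14d, chr9:40803995-40804080, plus strand: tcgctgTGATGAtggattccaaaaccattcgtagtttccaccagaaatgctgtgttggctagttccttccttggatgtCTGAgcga
Snora73a, chr4:132352775-132352979, minus strand: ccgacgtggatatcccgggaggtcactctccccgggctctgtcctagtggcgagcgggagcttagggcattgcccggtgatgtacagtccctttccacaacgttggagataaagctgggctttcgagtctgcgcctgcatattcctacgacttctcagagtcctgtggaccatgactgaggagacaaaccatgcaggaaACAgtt
Snora73b, chr4:132352322-132352526, minus strand: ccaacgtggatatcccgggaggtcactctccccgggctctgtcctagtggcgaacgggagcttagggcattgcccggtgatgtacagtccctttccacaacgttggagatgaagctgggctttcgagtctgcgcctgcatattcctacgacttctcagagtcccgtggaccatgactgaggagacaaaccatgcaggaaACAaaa
Snora19, chr19:60774330-60774461, minus strand: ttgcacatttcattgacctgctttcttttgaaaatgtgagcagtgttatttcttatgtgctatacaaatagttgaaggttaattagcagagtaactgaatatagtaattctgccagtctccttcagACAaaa
Snora57, chr19:8888538-8888685, minus strand: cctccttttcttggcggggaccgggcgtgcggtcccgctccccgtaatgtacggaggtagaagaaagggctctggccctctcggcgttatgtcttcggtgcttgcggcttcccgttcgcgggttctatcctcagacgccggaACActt
Scarna9, chr9:15326264-15326333, minus strand: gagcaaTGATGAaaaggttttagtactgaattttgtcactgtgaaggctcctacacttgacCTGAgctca

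TGATGA stood in the first 20 bases of 19 of the 23 box C/D members (82.6%), against 71.4% of the 98 annotated Snord genes. CTGA stood in the last 20 bases of all 23, against 98.0% of annotated Snord genes. ACA stood in the last 10 bases of 25 of the 27 box H/ACA members (92.6%), against 95.2% of the 42 annotated Snora genes. These letters were searched on the strand of the RNA only. A run of 6 or more A, a possible priming site inside the RNA, occurred in 2 of the 54 small RNAs (3.7%), Snord49b and Scarna10, against 2.9% of the 140 annotated Snora and Snord genes. The 54 include the scaRNAs, and so Scarna10, whereas the 140 do not. The longest run, 8 bases, was in Snord49b, and none of the 8 RNAs shown has a run longer than 4. The bases that follow the annotated ends in the genome were not read, so stretches of A there are not known.

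After 2 h of panobinostat the small RNA rows leaned lower by sign and the host gene rows did not. Of 47 small RNA rows with a test, 34 had a negative fold change and 13 a positive one. Among all tested rows 6323 were negative and 6227 positive. At a limma adjusted p below 0.05, 2 small RNA rows rose and 7 fell (19.1% called, against 38.3% of all tested rows). Some of these rows share a host or most of their sequence, so they are not independent of each other. Their median SE was 0.33, against 0.16 in all tested rows. The median log2 fold change was -0.20 in box C/D rows, -0.17 in box H/ACA rows and -0.40 in scaRNA rows. The median of the 11 host genes was 0.03, and that of all 12554 tested rows was -0.01. Rows with a mean below 0 on the log2 scale were not tested, which removed 4 box C/D and 3 box H/ACA rows (Snord14a, Snord15a, Snord38a, Snord82, Snora47, Snora65 and Snora75), each with an estimated 1 to 14 reads per library. As the libraries are bulk RNA, fewer cells with a transcript and less of it per cell cannot be told apart.

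Past the threshold (limma, Benjamini-Hochberg adjusted p below 0.05 over all tested rows) were 10 of the 58 tested members, or 17.2%, against 38.3% of all tested rows. Of these, 3 rose (Snhg4, Snora19 and Snora57), where 19.2% of all rows rose, and 7 fell (Snord13, Snord14d, Snord89, Snord104, Snora73a, Snora73b and Scarna9), where 19.0% of all rows fell. By class, 0 of 19 box C/D rows rose and 4 fell, 2 of 24 box H/ACA rows rose and 2 fell, 1 of 4 scaRNA rows fell, and 1 of 11 host genes rose. At an unadjusted limma p below 0.05 the counts were 0 higher and 4 lower in box C/D rows, 2 and 3 in box H/ACA rows, 0 and 2 in scaRNA rows, and 3 and 1 in host genes, where 24.3% of all tested rows were higher and 24.0% lower at that p. The 3 panobinostat libraries did not overlap the 3 untreated ones in 18 members, 6 of them higher and 12 lower, whereas 51.4% of all tested rows did not overlap. The share called was thus below that of the table, and it differed with level. Among the 18 members with a mean of at least 4 log2 CPM, 8 passed (44.4%), close to the 46.5% of all rows at that level. Of the 9 small RNA rows among these 18, 6 fell and 1 rose, and of the 9 host genes 1 rose. Between 2 and 4, 0 of the 13 members passed by limma, beside 37.1% of all rows, and 1 had an unadjusted p below 0.05. Scarna2 and Snora61 among them had separate groups. Below 2, 2 of 27 members (7.41%) passed, beside 18.4% of all rows. This division by level was made with the values known.

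**Figure D1:**
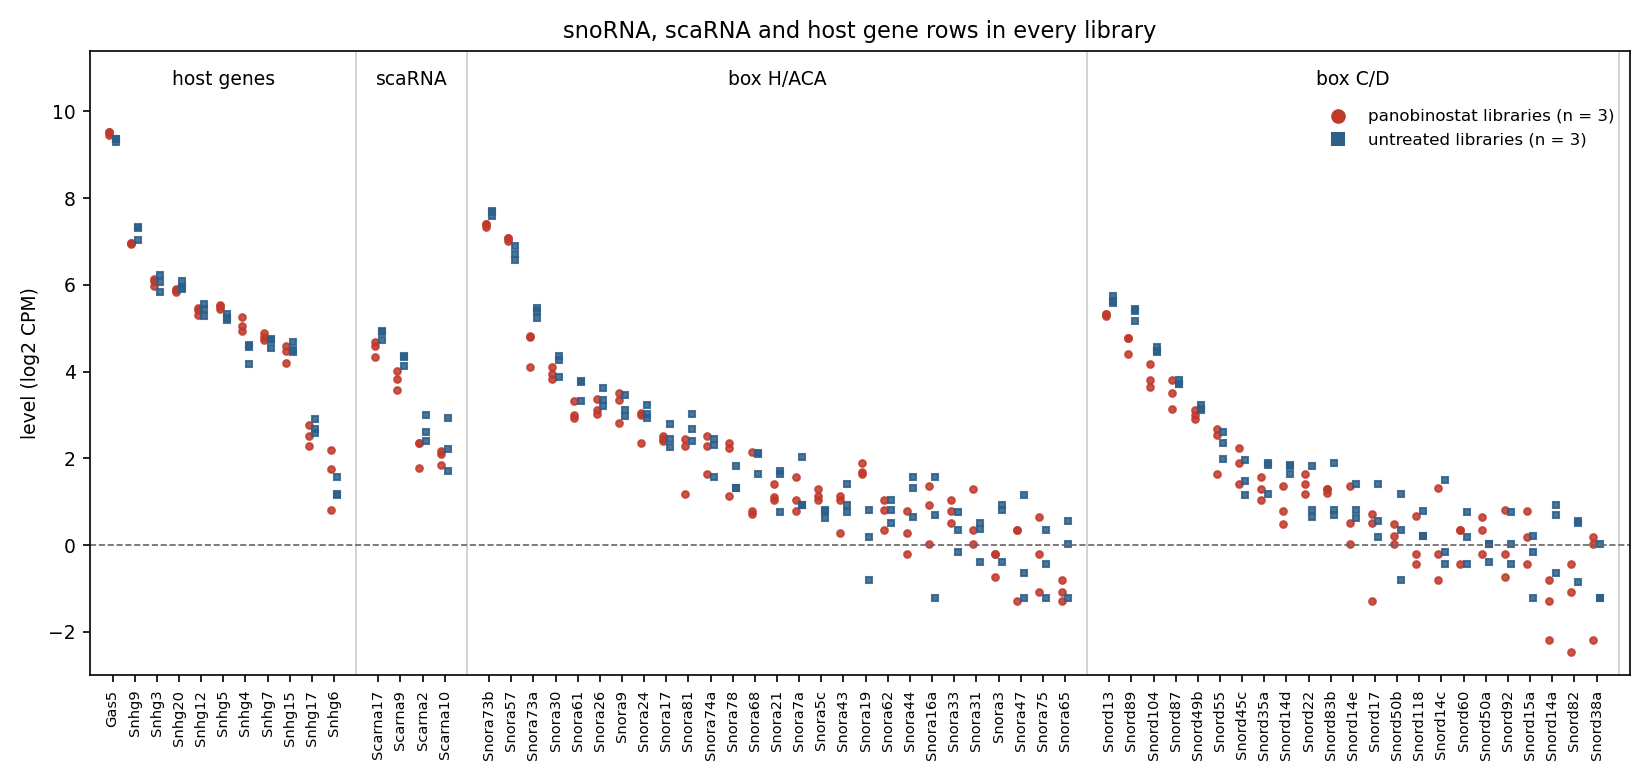
Level (log2 CPM) of each of the 65 rows in each library, ordered by mean level within its class. Red circles are the 3 panobinostat libraries and blue squares the 3 untreated ones, and the dashed line at 0 is the lower bound on the mean for a test. Gas5 is the highest row, and most box C/D rows lie below 2 log2 CPM with the 2 groups interleaved.

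**Figure D2:**
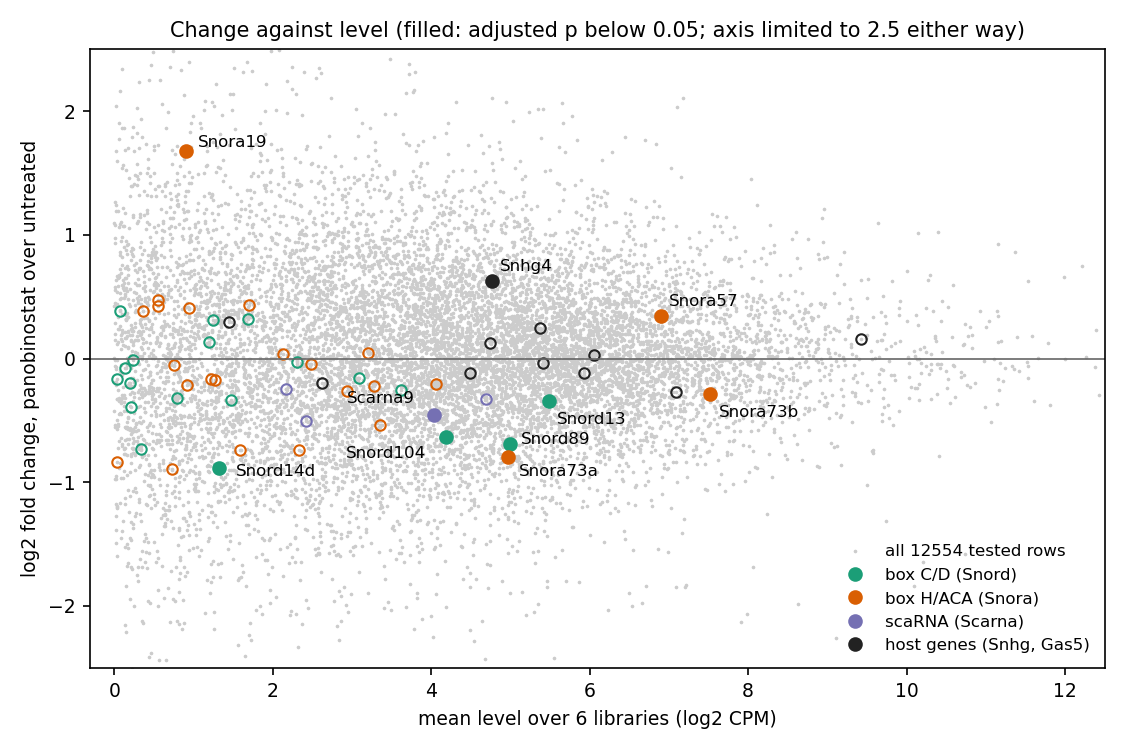
Log2 fold change, panobinostat over untreated, against mean level (log2 CPM) for all 12554 tested rows in grey and the tested members in colour, filled where adjusted p was below 0.05. Rows outside the frame are not drawn. The filled members at a mean of 4 or more lie below 0 except Snora57 and Snhg4.

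Summed over the 23 rows, box C/D snoRNAs held 134.2, 123.8 and 132.4 CPM in the panobinostat libraries, against 170.1, 169.9 and 171.9 CPM in the untreated libraries. The means were 130.2 ± 5.6 CPM with panobinostat and 170.6 ± 1.1 CPM untreated (SD, n = 3 each), and the groups were separate. Most of that difference lies in Snord89, Snord13 and Snord104, rows called lower above. Box H/ACA snoRNAs summed to 427.2, 415.2 and 414.9 CPM with panobinostat, against 479.4, 427.9 and 461.4 CPM untreated. There too each panobinostat library lay below each untreated one, by a narrow margin. That fall lies in Snora73b and Snora73a, which are close to each other in sequence. Snora73b held 170.7, 160.85 and 168.17 CPM with panobinostat, against 209.73, 194.08 and 206.59 CPM untreated. Without the pair, the sum of the remaining box H/ACA rows was higher with panobinostat, not lower. The 4 scaRNAs summed to 46.1 ± 6.3 CPM with panobinostat and 60.1 ± 2.1 CPM untreated, with no overlap. The host gene sum went the other way, at 1170.3, 1133.2 and 1162.6 CPM with panobinostat, against 1087.8, 1098.5 and 1093.5 CPM untreated. That rise lies in Gas5, a row that did not pass the test. Gas5 held 739.14, 698.25 and 739.14 CPM with panobinostat, against 660.58, 660.58 and 632.32 CPM untreated. Without Gas5 the sums of the other host genes overlapped between the groups. Single rows weigh on these sums: Gas5 made up 61.2% of the host sum, Scarna17 49.3% of the scaRNA sum, Snora73b 42.3% of the box H/ACA sum and Snord13 29.9% of the box C/D sum. The sums are descriptions and were not tested.

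**Figure D3:**
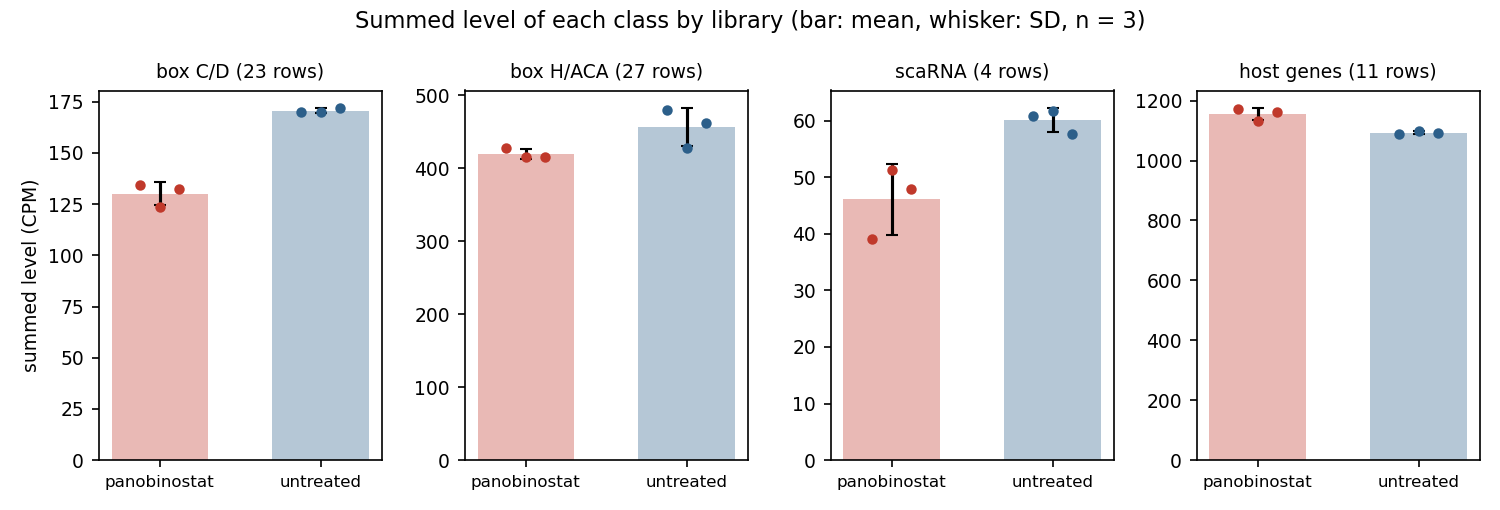
Summed level (CPM) of all rows of each class by library, panobinostat left and untreated right. Bars are means, whiskers SD (n = 3) and points single libraries. The box C/D, box H/ACA and scaRNA sums are lower with panobinostat, and the host gene sum is higher. Without Snora73a and Snora73b the box H/ACA sum is not lower, and without Gas5 the host gene sums overlap.

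Snord89, a box C/D snoRNA of 110 bases, had the smallest adjusted p of the members. Its levels were 4.77, 4.42 and 4.76 log2 CPM in the panobinostat libraries, against 5.40, 5.18 and 5.45 log2 CPM in the untreated libraries. All 3 panobinostat libraries were well below the untreated ones, and the log2 fold change was -0.69 ± 0.13 (SE; limma adjusted p = 0.00634). It was the only one of the 10 called members that stayed below 0.05 when any 1 of the 6 libraries was left out, with fold changes from -0.77 to -0.57. Snord89 lies within Gm15832 on the same strand, outside its exons, 1175 bases before its 3′ end. GENCODE annotates Gm15832 as noncoding, while RefSeq lists that name as another name of the protein-coding gene Rnf149, which has a row of its own. The Gm15832 row was at 5.85, 5.89 and 5.83 log2 CPM with panobinostat, against 5.81, 5.42 and 5.79 log2 CPM untreated, with a log2 fold change of 0.18 ± 0.12 that did not pass (limma adjusted p = 0.255).

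Snord13 is an independently transcribed box C/D RNA that guides acetylation of 18S ribosomal RNA, and it had the highest level of its class. It stood at 5.33, 5.28 and 5.32 log2 CPM with panobinostat, against 5.62, 5.75 and 5.59 log2 CPM untreated. The groups were separate by a small distance, and Snord13 fell by 0.35 ± 0.09 on the log2 scale (limma adjusted p = 0.0173). Without panobinostat library 2 the adjusted p was 0.0599, and without panobinostat library 3 it was 0.0575. It is one of the 3 small RNA members with no annotated host, with Snord118 and Scarna2, so no reads of a host gene on its strand overlap it in the annotation.

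Snord104 was at 3.80, 4.17 and 3.64 log2 CPM with panobinostat, against 4.44, 4.58 and 4.48 log2 CPM untreated. It fell by 0.63 ± 0.15 on the log2 scale (limma adjusted p = 0.0151), and lost the call without panobinostat library 3 (adjusted p = 0.0525). RefSeq places it inside the noncoding gene Gm36220, not analysed here.

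The Snord14 genes (U14) belong to a family that acts in the cleavage of the precursor of 18S ribosomal RNA. Snord14d, at an estimated 8, 11 and 19 reads with panobinostat, against 28, 23 and 20 reads untreated, had levels of 0.48, 0.80 and 1.37 log2 CPM with panobinostat and 1.82, 1.84 and 1.64 log2 CPM untreated. Its log2 fold change was -0.88 ± 0.30 (limma adjusted p = 0.0490). That call stood at the threshold: it remained only without panobinostat library 3, and the adjusted p was 0.0945 to 0.128 without any of the other 5 libraries. With the replicate number as a block it was 0.0878. Its sister Snord14c shares 97.7% of its bases and had a log2 fold change of -0.20 ± 0.70 (limma adjusted p = 0.848), and Snord14e, at 82.2% identity, -0.32 ± 0.43 (0.584). Reads that match Snord14c and Snord14d equally well could have been split between them, and the handling of such reads is not given in the sources used here. All 3 lie fully within annotated exons of transcripts of Hspa8, a constitutive heat shock protein gene. Exons of all annotated transcripts of a gene were pooled throughout, so an RNA given here as exonic may be intronic in the main spliced transcript.

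The other 15 tested box C/D rows did not pass, with log2 fold changes from -0.73 (Snord17) to 0.38 (Snord50a). The highest of these, Snord87, was at 3.49 ± 0.33 log2 CPM with panobinostat and 3.74 ± 0.05 log2 CPM untreated (SD, n = 3 each), and Snord49b at 3.01 ± 0.11 log2 CPM with panobinostat and 3.16 ± 0.07 log2 CPM untreated. Their groups overlapped. Snord118 (U8), which acts in processing of the large subunit ribosomal RNA, was at 0.01 ± 0.58 log2 CPM with panobinostat and 0.41 ± 0.34 log2 CPM untreated. At such levels the SE is wide. The median SE of the log2 fold change was 0.36 in box C/D rows and 0.16 in all tested rows.

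**Figure D4:**
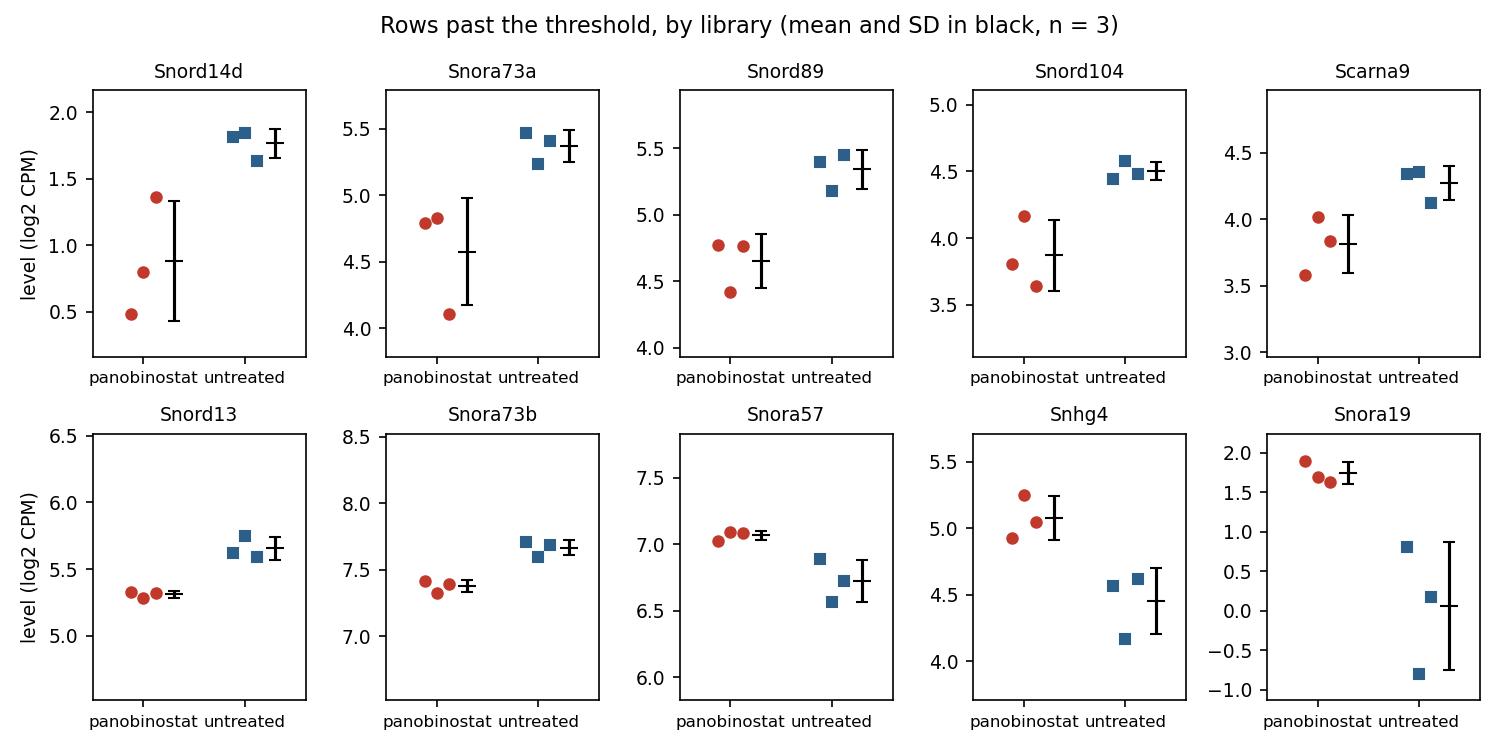
Level (log2 CPM) in each library of the 10 members with adjusted p below 0.05, panobinostat left and untreated right, from the most negative to the most positive fold change. Black marks are the mean and SD (n = 3). The vertical axes differ between panels and do not start at 0. In each panel the 2 groups are separate.

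Snora73a and Snora73b (U17 or E1) are box H/ACA RNAs that, unlike most of their class, act in cleavage of the precursor of 18S ribosomal RNA rather than as guides. Both are 205 bases long, share 96.6% of their bases and lie side by side within Snhg3 and Rcc1. Snora73b, the highest small RNA row, was at 7.42, 7.33 and 7.39 log2 CPM with panobinostat, against 7.71, 7.60 and 7.69 log2 CPM untreated. It fell by 0.29 ± 0.07 on the log2 scale (limma adjusted p = 0.0147). Its adjusted p was 0.0582 without panobinostat library 2, 0.0540 without panobinostat library 3 and 0.0530 without untreated library 3. Snora73a was at 4.79, 4.83 and 4.11 log2 CPM with panobinostat, against 5.46, 5.24 and 5.41 log2 CPM untreated. It fell by 0.79 ± 0.19 on the log2 scale (limma adjusted p = 0.0153), and lost the call without untreated library 3 (adjusted p = 0.0529). Both rows moved the same way, but because the pair is so alike the assignment of reads between them is uncertain. The 2 falls are therefore not independent results. Snora73a overlaps annotated exons of Snhg3 over 77.6% of its length and Snora73b over 0%, and the gene Gm17300 lies on the opposite strand of both.

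Snora57 moved in the opposite direction at a similar level. It was at 7.02, 7.09 and 7.09 log2 CPM with panobinostat, against 6.89, 6.57 and 6.72 log2 CPM untreated. The groups were separate, and Snora57 rose by 0.34 ± 0.09 on the log2 scale (limma adjusted p = 0.0247). This call remained only without untreated library 1, and the adjusted p was 0.0541 to 0.0816 without any of the other 5 libraries. Snora57 lies antisense to Lbhd1, whose row was at 4.84, 4.87 and 4.93 log2 CPM with panobinostat, against 4.96, 5.08 and 5.21 log2 CPM untreated (log2 fold change -0.21 ± 0.10, limma adjusted p = 0.152). The strand setting of the counting is not given in the sources used here, so reads of a gene and its antisense partner cannot be told apart. RefSeq places Snora57 inside the noncoding gene 5730408K05Rik, not analysed here.

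Snora19, in an intron of Eif3a (a subunit of a translation initiation factor), had the largest fold change of the tested members. It had an estimated 22, 21 and 23 reads with panobinostat, against 14, 3 and 7 reads untreated. On the log2 scale this was 1.90, 1.69 and 1.64 CPM with panobinostat, against 0.81, -0.79 and 0.18 CPM untreated. Snora19 rose by 1.68 ± 0.43 (limma adjusted p = 0.0180), with adjusted p of 0.0576 without panobinostat library 1 and 0.0508 without panobinostat library 2. The untreated libraries were spread far more widely than the panobinostat ones.

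The other 20 tested box H/ACA rows had log2 fold changes from -0.89 to 0.47, and Snora61 came closest to the threshold. It was at 3.09 ± 0.21 log2 CPM with panobinostat and 3.62 ± 0.25 log2 CPM untreated (SD, n = 3 each), with no overlap and a log2 fold change of -0.54 ± 0.19 (limma adjusted p = 0.0532). Without untreated library 1 it was called lower (adjusted p = 0.0186). Snora61, Snora44 and Snora16a all lie in annotated exons of Snhg12. Snora44 had a log2 fold change of -0.89 ± 0.40 and Snora16a of 0.42 ± 0.72, neither past the test. Snora5c had separate groups, at 1.15 ± 0.12 log2 CPM with panobinostat and 0.75 ± 0.10 log2 CPM untreated, but no call (limma adjusted p = 0.260). Snora68 passed only without panobinostat library 1 (log2 fold change -1.21, adjusted p = 0.0247).

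All 4 scaRNA rows had negative fold changes, and 3 had separate groups. Of all 12554 tested rows 6323 were negative, and 25.7% had separate groups that were lower with panobinostat. Scarna9 was at 3.58, 4.02 and 3.84 log2 CPM with panobinostat, against 4.34, 4.35 and 4.12 log2 CPM untreated. It fell by 0.46 ± 0.15 on the log2 scale (limma adjusted p = 0.0436), a call that remained only without panobinostat library 2 (0.0588 to 0.127 without any of the other 5 libraries). With the replicate number as a block it was 0.0667. The highest of the class, Scarna17, was at 4.53 ± 0.18 log2 CPM with panobinostat and 4.86 ± 0.12 log2 CPM untreated (log2 fold change -0.33 ± 0.13, limma adjusted p = 0.0760). Scarna2, which has no annotated host, was at 2.17 ± 0.33 log2 CPM with panobinostat and 2.67 ± 0.30 log2 CPM untreated (log2 fold change -0.50 ± 0.25, limma adjusted p = 0.147). Scarna10, which overlaps exons of Ncapd2 over 72.9% of its length, had groups that overlapped.

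Of the 11 host genes, Snhg4, which holds Snora74a, was the only one past the test. It was at 4.93, 5.25 and 5.05 log2 CPM with panobinostat, against 4.57, 4.17 and 4.62 log2 CPM untreated. Snhg4 rose by 0.63 ± 0.15 on the log2 scale (limma adjusted p = 0.0149), and lost the call without panobinostat library 2 (adjusted p = 0.0566). Snora74a itself was at 2.15 ± 0.46 log2 CPM with panobinostat and 2.11 ± 0.48 log2 CPM untreated, with overlapping groups. RefSeq gives no strand for Snhg4 in the table used, so that it shares the strand of Snora74a was not established.

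Gas5, the highest member, was at 9.53, 9.45 and 9.53 log2 CPM with panobinostat, against 9.37, 9.37 and 9.30 log2 CPM untreated. The groups were separate, but the log2 fold change of 0.16 ± 0.06 did not pass (limma adjusted p = 0.0909), and its call did not change when any 1 library was left out. Snhg5 was likewise separate, at 5.49 ± 0.04 log2 CPM with panobinostat and 5.25 ± 0.07 log2 CPM untreated (log2 fold change 0.25 ± 0.09, limma adjusted p = 0.0602). It was called higher without untreated library 1 (adjusted p = 0.0378).

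Snhg9 lay on the other side of 0, at 6.96 ± 0.02 log2 CPM with panobinostat and 7.23 ± 0.16 log2 CPM untreated (log2 fold change -0.27 ± 0.09, limma adjusted p = 0.0526). Without untreated library 1 it was called lower (adjusted p = 0.00476). Snhg9 overlaps Rps2, a ribosomal protein gene, on the opposite strand. The Rps2 row rose, at 6.24, 6.34 and 6.52 log2 CPM with panobinostat, against 5.46, 4.63 and 4.88 log2 CPM untreated (log2 fold change 1.37 ± 0.20, limma adjusted p = 0.00216). The 2 overlapping rows thus had opposite signs. Snhg20 had separate groups, at 5.87 ± 0.04 log2 CPM with panobinostat and 5.99 ± 0.10 log2 CPM untreated, with no call (limma adjusted p = 0.313). The remaining 6 host genes (Snhg3, Snhg6, Snhg7, Snhg12, Snhg15 and Snhg17) had overlapping groups and log2 fold changes between -0.20 and 0.29.

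The symbol rule leaves out noncoding genes whose names do not show that they hold a snoRNA. GENCODE gives 10 such genes with a row, among them Gm15832 above, and 4 rose and 0 fell by limma (the same counts at an unadjusted p below 0.05), where 19.2% of all tested rows rose and 19.0% fell. The rows that rose were Zfas1, which holds Snord12 (log2 fold change 0.33 ± 0.06, limma adjusted p = 0.00592), 1110038B12Rik, which holds Snord52 (0.87 ± 0.14, 0.00273), AA465934, which holds Snord7 (0.56 ± 0.13, 0.0112), and 1810032O08Rik, which RefSeq names Snhg16 (0.83 ± 0.25, 0.0310). The last was called without untreated library 1 but not without any other single library (adjusted p from 0.0636 to 0.0888). Zfas1 was at 8.47, 8.52 and 8.47 log2 CPM with panobinostat, against 8.13, 8.17 and 8.18 log2 CPM untreated. The 4 were named after their values were seen.

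Protein-coding genes around snoRNAs moved in both directions. Of 68 tested ones that hold a named Snora, Snord or Scarna gene, 13 rose and 8 fell (30.9% called, against 38.3% of all rows), and of 210 that hold any annotated snoRNA or scaRNA, 50 rose and 26 fell (36.2%). The 4 with the smallest adjusted p among the 68 were Srcap, Haus6, Rps2 and Rpl4. Srcap, the ATPase of a chromatin remodelling complex and host of Snora30, fell by 1.55 ± 0.11 on the log2 scale (limma adjusted p = 0.000218). Haus6, a subunit of the augmin complex of the spindle, rose by 0.92 ± 0.13, and the ribosomal protein gene Rpl4 rose by 0.45 ± 0.08 (limma adjusted p = 0.00180 and 0.00460).

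Each small RNA row was then set against the row of its host within a library, where both passed the filter. This gave 43 pairs of 39 small RNAs and 35 hosts. The small RNA row lay below its host row in 39 of the 43, with a median difference of -4.86 log2 units. The signs of the fold changes were opposite in 24 pairs and the same in 19, and both rows were called in 2. The difference did not overlap between the groups in 13 pairs (30.2%), of which 10 were lower and 3 higher with panobinostat. For single rows of the table that share was 51.4%, and no such share was made for other pairs of rows. Pairs that share a small RNA or a host are not independent, and the Snora73 genes, each with 2 hosts, make up 4 of the 10. With 3 libraries against 3 the exact two-sided permutation test cannot go below p = 0.1, and adjusted over the 43 pairs the smallest value was 0.331, so no pair passed.

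Of the 13 pairs whose host is a named Snhg gene, 4 had separate groups, those of Snora73a and Snora73b with Snhg3, Snora74a with Snhg4 and Snora61 with Snhg12. In the other 9 the groups overlapped, among them Snord50a and Snord50b in Snhg5, Snora17 and Snora43 in Snhg7 and Snora9 in Snhg15. The small RNA lay above its host in 2 of the 13, Snora73b in Snhg3 and Snord87 in Snhg6. Snord87 minus Snhg6 was 2.99, 0.94 and 1.76 log2 units with panobinostat, against 2.53, 2.24 and 2.57 log2 units untreated.

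The pairs lower with panobinostat were led by the Snora73 genes against Rcc1, the gene of the exchange factor of the GTPase Ran. Snora73b minus Rcc1 was 0.62, 0.17 and 0.12 log2 units with panobinostat, against 0.97, 2.10 and 2.04 log2 units untreated. Rcc1 itself rose by 1.11 ± 0.31 on the log2 scale (limma adjusted p = 0.0246), at 6.79, 7.16 and 7.27 log2 CPM with panobinostat, against 6.75, 5.50 and 5.65 log2 CPM untreated. Untreated library 1 stood apart from the other untreated libraries in this row. The adjusted p of Rcc1 was 0.0725 without panobinostat library 2, 0.0775 without panobinostat library 3, 0.0695 without untreated library 2 and 0.0867 without untreated library 3. Against Snhg3, whose row had a log2 fold change of 0.03 ± 0.11, Snora73b was 1.32, 1.18 and 1.42 log2 units higher with panobinostat and 1.49, 1.76 and 1.62 log2 units higher untreated, again with no overlap.

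Snord89 minus Gm15832 was -1.08, -1.48 and -1.07 log2 units with panobinostat, against -0.41, -0.24 and -0.34 log2 units untreated. The groups were separate, with a change of -0.88 log2 units. The other pairs that were lower with panobinostat were Snord14d with Hspa8, Snora81 with Eif4a2, Snord35a with Gm45713, Snora74a with Snhg4 and Snora61 with Snhg12, with changes between -0.95 and -0.50 log2 units. Against their other paired hosts, Rpl13a for Snord35a and Gm28285 for Snora74a, the groups overlapped, with changes of -0.25 and -0.15 log2 units. The 3 pairs higher with panobinostat were Snora19 with Eif3a (1.52), Snora30 with Srcap (1.34) and Snora5c with Tbrg4 (1.02). In the Snora30 pair it was the host that fell: Snora30 was at 3.96 ± 0.15 log2 CPM with panobinostat and 4.16 ± 0.26 log2 CPM untreated, with overlapping groups. Tbrg4, a mitochondrial RNA-binding protein gene, fell by 0.61 ± 0.14 (limma adjusted p = 0.0131), but not without panobinostat library 3 (0.0503) or untreated library 3 (0.0523).

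**Figure D5:**
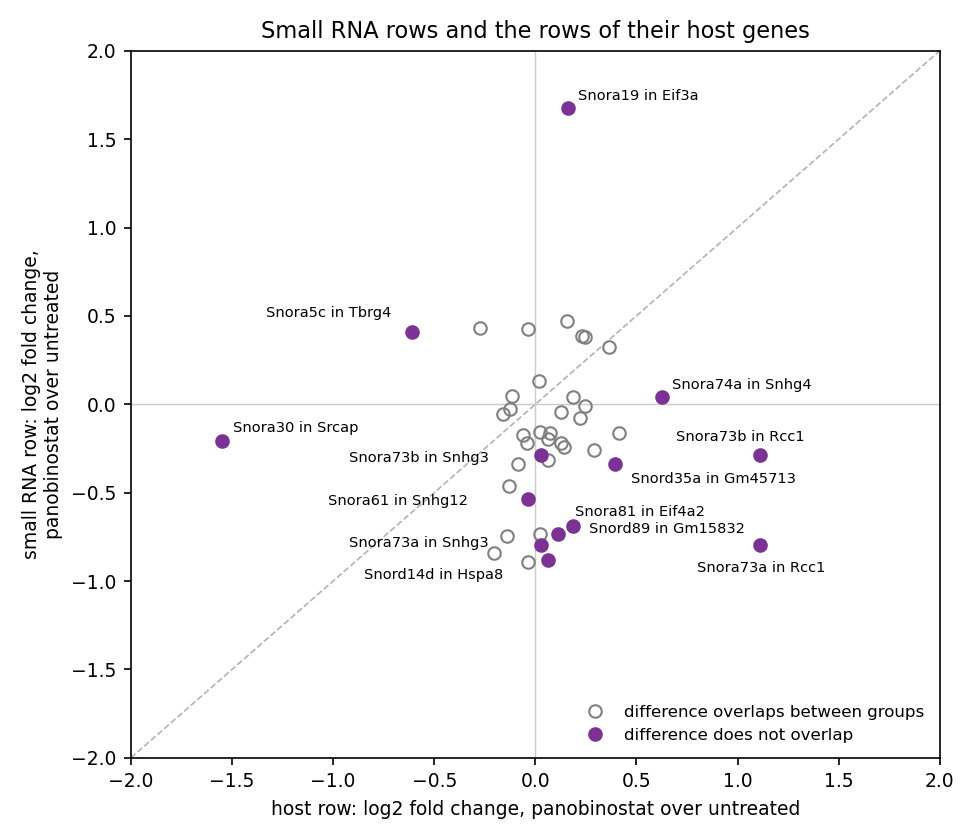
Log2 fold change of the small RNA row against that of its host row for the 43 pairs, both panobinostat over untreated. Filled points are the 13 pairs whose within-library difference does not overlap between the groups, and the dashed line marks equal change. Most points lie near 0 on the host axis, with 10 of the filled points below the line and 3 above it.

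The small RNA rows were also divided by overlap with host exons, pooled over all annotated transcripts of the host. A small RNA with overlap may thus be intronic in the main spliced transcript. Of 24 tested small RNA rows with no GENCODE host exon across them, 2 rose and 5 fell (29.2% called), and of 23 that overlap one, 0 rose and 2 fell by limma (8.70% called; 0 and 3 at an unadjusted p below 0.05). Both shares lie below the 38.3% of all tested rows (19.2% higher and 19.0% lower). The median log2 fold change was -0.21 without overlap and -0.20 with it. The group without overlap includes rows with no GENCODE host. Among these are Snora57 and Snord104, both called, whose overlap with exons of their RefSeq hosts was not determined. The groups also differ in level, with a median of 1.7 log2 CPM without overlap and 0.95 log2 CPM with it, and the share called differed with level. This comparison was made with the values known, and the difference was not tested.

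Genes of the snoRNA pathway were taken from lists of their roles. Of the 4 core proteins of box C/D particles, 2 rose and 1 fell (75.0% called). The share called was 38.3% of all tested rows and 46.5% of those at a mean of 4 or more. A list of 4 genes is too short to read that difference. The median log2 fold change of the 4 was 0.10, against -0.01 over all tested rows. Nop58 and Snu13 rose by 0.25 each on the log2 scale and Nop56 fell by 0.24, while Fbl, the methyltransferase, did not pass (log2 fold change -0.05 ± 0.08). The 3 calls lay close to the threshold (limma adjusted p = 0.0295, 0.0430 and 0.0445) and each was lost without 5 of the 6 libraries. Of the 4 core proteins of box H/ACA particles (75.0% called, median log2 fold change 0.05), Dkc1, the pseudouridine synthase, fell and Nop10 and Gar1 rose. Dkc1 was at 7.84, 7.95 and 7.73 log2 CPM with panobinostat, against 8.29, 8.52 and 8.42 log2 CPM untreated, a log2 fold change of -0.57 ± 0.09 (limma adjusted p = 0.00274). Nop10 was at 8.38, 8.41 and 8.35 log2 CPM with panobinostat, against 7.97, 7.85 and 8.09 log2 CPM untreated, a log2 fold change of 0.41 ± 0.08 (limma adjusted p = 0.00606). Gar1 rose by 0.76 ± 0.19 (limma adjusted p = 0.0164), but not without panobinostat library 2 (0.0514), panobinostat library 3 (0.0560) or untreated library 3 (0.0525).

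Among 16 assembly and Cajal body genes, 4 rose and 3 fell (43.8% called, against 38.3% of all tested rows and 46.5% of those at a mean of 4 or more, with a median log2 fold change of -0.11). Shq1, a chaperone of Dkc1, rose by 1.43 ± 0.24, Nolc1, a nucleolar and Cajal body phosphoprotein, by 0.61 ± 0.07 and Smn1 by 0.47 ± 0.08, while Coil, which encodes the Cajal body protein coilin, fell by 1.06 ± 0.16 (limma adjusted p between 0.000914 and 0.00412). Of 23 tested genes of small RNA release and trimming, 2 rose and 4 fell (26.1% called, below both of those shares, with a median of -0.13). Exosc10, the nuclear exosome exonuclease, was at 4.88, 4.63 and 4.45 log2 CPM with panobinostat, against 5.95, 6.06 and 6.05 log2 CPM untreated, a log2 fold change of -1.37 ± 0.12 (limma adjusted p = 0.000400). Toe1, a deadenylase of small nuclear RNAs, fell by 0.89 ± 0.15. Papd5, which adds short A tails to nuclear RNAs, rose by 0.56 ± 0.08, and the exosome core gene Exosc7 by 0.49 ± 0.11 (limma adjusted p between 0.00187 and 0.00875 for the 3).

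Of 16 nonsense-mediated decay genes, 5 rose and 6 fell (68.8% called, against 38.3% of all tested rows and 46.5% of those at a mean of 4 or more, with a median log2 fold change of 0.18). Smg8 rose by 1.37 ± 0.22 and Magoh, of the exon junction complex, by 0.44 ± 0.08, whereas Smg9 fell by 0.84 ± 0.15 and Upf3a by 0.99 ± 0.19 (limma adjusted p between 0.00311 and 0.00535). Of 6 regulators of terminal oligopyrimidine transcripts, Mtor (0.50 ± 0.11) and Larp1 (0.40 ± 0.10) rose and Tial1 (-0.28 ± 0.09) fell (limma adjusted p = 0.0105, 0.0166 and 0.0421). That is 50.0% called in a short list, beside the 38.3% and 46.5% above. Larp1 was not called without panobinostat library 3 (0.0618) or untreated library 3 (0.0584), and Tial1 kept its call only without panobinostat library 2 (0.0580 to 0.149 without any of the other 5 libraries).

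The labelled cell type was checked against marker genes. All 11 T cell markers had a row, and their levels summed to 1275.8 to 1300.1 CPM with panobinostat, against 1556.2 to 1677.1 CPM untreated, with 1 gene higher (Notch1) and 3 lower (Lck, Cd3d and Cd3e). Of the 5 B cell markers 4 had a row, summing to 37.1 to 37.7 CPM with panobinostat and 45.4 to 53.2 CPM untreated, with 2 lower. All 7 myeloid markers had a row, at 1053.2 to 1151.0 CPM with panobinostat and 1293.9 to 1466.8 CPM untreated, with 4 lower. All 5 erythroid markers had a row, at 4589.4 to 4754.8 CPM with panobinostat and 4645.7 to 5210.1 CPM untreated, with 1 higher and 2 lower. Transcripts of other blood cell types were thus present in every library, and their part in the results on snoRNA rows was not tested. For comparison, limma called 19.2% of all tested rows higher and 19.0% lower (38.3% called). Marker lists of 4 to 11 genes are too short to read a difference from those shares.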

How the data were processed

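The deposited table holds log2 values per gene and library, which the authors made, per the submitters' processing notes, with cutadapt 1.9, HISAT2 2.1.0, featureCounts of Subread 1.5.0 and limma on build mm10. The values behave as quantile-normalised log2 CPM: their powers of 2 sum to about the same total in each library. That unit is read from the values, and depth and read numbers were estimated from the spacing of the low values within each library. The annotation and the strand, overlap and multi-mapping settings are not given in the sources used here. Rows with a mean of at least 0 over the 6 libraries were fitted in limma 3.58.1 (R 4.3.3) with a mean-variance trend, and p-values were adjusted over all 12554 rows. The same fit was tested on simulated data: it called 49 of 100 rows changed by 1 log2 unit, 11 of 100 changed by 0.5, and 1 of 12354 unchanged rows. In that simulation 12354 of 12554 rows were unchanged, whereas 38.3% of rows were called in the data. The adjustment is stricter when few rows change, so these rates do not give the power of the fit reported here. Positions of members come from GENCODE M21 (63 members) or RefSeq GRCm38.p6 (Snhg4 and Snhg7). Hosts are genes whose span holds the small RNA on the same strand in GENCODE M21, with hosts from RefSeq added for Snora17, Snora43, Snora57, Snora74a, Snord104 and Scarna17. For the RefSeq hosts of Snora74a and Scarna17 the strand was not given. A member was named if it is a host gene, passed the test or is among the 3 highest of its class, and up to 4 genes of each pathway list by adjusted p. Other rows named were chosen after their values were seen. Members and lists were chosen with earlier results of these data known. Library numbers are those of the table's columns. Same-numbered libraries did not deviate together (correlations of -0.04, 0.10 and -0.01), so the numbers were not taken as pairs. One small RNA sequence is not reported here.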

Additional observations from a re-analysis of the deposited data

How the results depend on the processing

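No called member changed direction under the alternatives tried, but 9 of the 10 lost their call without at least 1 library. The counts of members that rose (3) and fell (7) became 0 and 1 at an adjusted p of 0.01, and 5 rose with array weights (Gas5 and Snhg5 added). Leaving out one library gave 0 to 4 higher (1 without panobinostat library 1 and 0 without panobinostat library 2) and 3 to 7 lower (4 without panobinostat library 2, 3 without panobinostat library 3 and 3 without untreated library 3). Over all rows, 2416 rose and 2390 fell; at 0.01 these were 1240 and 1273, and without one library 1587 to 2664 and 1636 to 2562, the lowest count of rises being without panobinostat library 3. With the replicate number as a block, 3 members rose and 5 fell, and 2079 and 2069 of all rows. No filter, equal library medians, a pseudocount of 1, no trend and robust eBayes kept the member counts within 1.5 times. Single calls ended with no trend (Snora57, Snora73b and Scarna9, adjusted p 0.0627, 0.0526 and 0.0556), with array weights (Scarna9, 0.0584, and Snord14d, 0.0517) and, for Snord14d, with no filter (0.0511) or robust eBayes (0.0506). Other calls were gained. Snora61 and Snhg9 were called lower with a mean of at least 2 (0.0474 and 0.0491), robust eBayes (0.0414 and 0.0401) and array weights (0.0143 and 0.0059). Snhg5 was called higher with a mean of at least 2 (0.0495), Snora5c higher with no trend (0.0366) and Snora3 lower with array weights (0.0452). The 13 separate pairs of 43 were 14 of 50 with no filter, 9 of 16 with a mean of at least 2, and 15 to 19 with one library left out, with fewer values per group. Depth limits the rows below 2 log2 CPM, where a library gave few reads per row.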

Other observations

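Among the noncoding hosts outside the symbol rule, Rab26os, which holds Snord60, was at 4.96, 5.19 and 5.16 log2 CPM with panobinostat, against 4.56, 5.08 and 5.01 log2 CPM untreated, with overlapping groups (log2 fold change 0.22 ± 0.15, limma adjusted p = 0.288). Dancr, which holds Snora26, was at 4.10 ± 0.17 log2 CPM with panobinostat and 4.14 ± 0.04 log2 CPM untreated (SD, n = 3 each; limma adjusted p = 0.831), and Snora26 at 3.17 ± 0.19 log2 CPM with panobinostat and 3.39 ± 0.22 log2 CPM untreated (limma adjusted p = 0.356).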
